A study of Rattus norvegicus with 3 samples.

Results

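The genes described here are the Wnt pathway ligands, their receptors, their secreted modulators and the core of the signalling chain behind them. They were chosen by symbol, as every row named for a Wnt ligand, a frizzled receptor, Lrp5 or Lrp6, a dickkopf, an Sfrp, Wif1, an R-spondin, Porcn, Axin2, Dvl1, Dvl3, Apc, Gsk3a, Gsk3b, Ctnnb1, Lef1 or a Tcf7 gene. The rule itself uses names and no expression value. It gave 56 of the 30957 rows, carrying 55 symbols, since Dkk1 stood in 2 rows. Axin1, Dvl2 and Fzd10 would also have matched the rule, but no row carried these symbols. The RNA came from motor cortex of 3 male Sprague-Dawley rats, numbered 12, 24-4 and 33, each with its own library. All 3 had cerebral ischemia and reperfusion, in which blood flow to the brain is stopped and then restored, followed by electroacupuncture at the GB20 (Fengchi) point, and all carry a time label of 8 weeks. The labels do not say how the ischemia was produced, what the 8 weeks are counted from, or which hemisphere was taken. With 1 group, these values show the level of each gene and how far the treated rats differ from each other, and no effect of ischemia or of acupuncture could be tested.

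Wnt proteins are secreted, lipid-bearing ligands that bind a frizzled receptor together with the coreceptor Lrp5 or Lrp6. Without ligand, a complex of Axin, Apc and the kinases Gsk3a and Gsk3b marks β-catenin, the product of Ctnnb1, for destruction. With ligand, dishevelled proteins recruit Axin to the membrane, β-catenin enters the nucleus, and together with the TCF and LEF factors it switches on target genes, one of which is Axin2 itself. In the adult brain the pathway is known for its part in the upkeep of the blood-brain barrier, in synapses and in the oligodendrocyte lineage.

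The bases just before the transcription start are shown for Axin2, the standard readout gene of the pathway, and for Wnt2 and Wnt10a, ligands among the members that differed most between the rats. Each line gives 250 bases from RefSeq on build GRCr8, written on the strand of the gene with the start to the right. Capitals mark the core sequence CTTTGAT bound by TCF and LEF factors, searched on both strands.
Axin2 (chr10:94398535-94398784, plus strand): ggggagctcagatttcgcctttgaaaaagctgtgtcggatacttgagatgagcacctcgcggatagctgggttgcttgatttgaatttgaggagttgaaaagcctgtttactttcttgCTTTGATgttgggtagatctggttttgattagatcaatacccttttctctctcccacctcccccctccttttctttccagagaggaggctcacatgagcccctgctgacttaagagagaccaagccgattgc
Wnt10a (chr9:83798344-83798593, plus strand): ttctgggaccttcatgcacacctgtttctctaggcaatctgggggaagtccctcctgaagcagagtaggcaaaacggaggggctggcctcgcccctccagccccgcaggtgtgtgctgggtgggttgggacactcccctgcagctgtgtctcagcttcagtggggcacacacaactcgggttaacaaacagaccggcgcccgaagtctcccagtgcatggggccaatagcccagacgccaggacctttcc
Wnt2 (chr4:47340285-47340534, minus strand): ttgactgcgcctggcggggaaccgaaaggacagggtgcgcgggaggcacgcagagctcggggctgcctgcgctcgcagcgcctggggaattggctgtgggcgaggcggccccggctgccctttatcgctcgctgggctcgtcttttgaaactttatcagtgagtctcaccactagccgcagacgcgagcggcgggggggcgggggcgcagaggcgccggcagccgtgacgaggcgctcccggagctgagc
The Axin2 window held the core 1 time, beginning 132 bases before the start. RefSeq promoters could be matched for 40 of the 55 symbols, and that of Axin2 was the one among the 40 with the core, a share of 2.5%. Among all 33469 promoters of the same length, 1054 held it, or 3.15%. Wnt2 and Wnt10a had no match, which says only that these letters are absent from these windows. The windows also differed in base composition, since the Wnt2 window had 29 CG dinucleotides and a GC content of 70.4%, the Wnt10a window 8 and 61.2%, and the Axin2 window 5 and 47.6%.

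Levels are given as FPKM, which divides the fragments of a gene by its length and by the size of the library, so they can be compared between genes within a library. Depth, estimated from the steps between low values of short genes, was 15350000, 17250000 and 13020000 fragments in rats 12, 24-4 and 33. At that depth a gene of 1 kb with 3 fragments would have an FPKM of 0.195, 0.174 and 0.23. The mitochondrial genome took 26.6%, 14.4% and 20.9% of all FPKM, and any such shift moves every other value in that library. The 56 rows together took 0.109%, 0.124% and 0.102%. Of them, 37 averaged 1 FPKM or more and were tested, 12 lay between 0 and 1, and 7 were listed at 0 in all rats. A listed 0 can be a failed estimate in these files, because Hprt1, a purine salvage gene that nearly every cell uses, is also listed at 0 in all rats, in both of its rows.

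Ctnnb1 led at 112 ± 14.6 FPKM (SD, n = 3 rats, here and below), followed by Gsk3a at 87.8 ± 29.5, the secreted protein gene Dkk3 at 82.1 ± 11.1 and Gsk3b at 31.4 ± 7.60. Every ligand and receptor averaged below 12 FPKM, and Wnt7b was the highest of them at 11.5 ± 5.62. On the log2(FPKM + 1) scale, the median of the cytoplasmic regulators (Dvl1, Dvl3, Axin2, Apc, Gsk3a, Gsk3b) was 4.87 ± 0.12. The median level was 1.90 ± 0.29 for the 11 receptor and coreceptor rows, 1.94 ± 0.08 for the 4 R-spondins, 1.86 ± 0.19 for the 5 catenin and TCF genes, 0.63 ± 0.13 for the 19 ligands and 0.48 ± 0.18 for the 10 rows of secreted inhibitors. With rows at 0 in all rats left out, it was 1.42 for the secreted inhibitors and 0.67 for the ligands, so their order turned. The 37 tested members had a median mean level of 4.35 FPKM, against 10.5 FPKM for the 13754 genes tested.

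**Figure D1:**
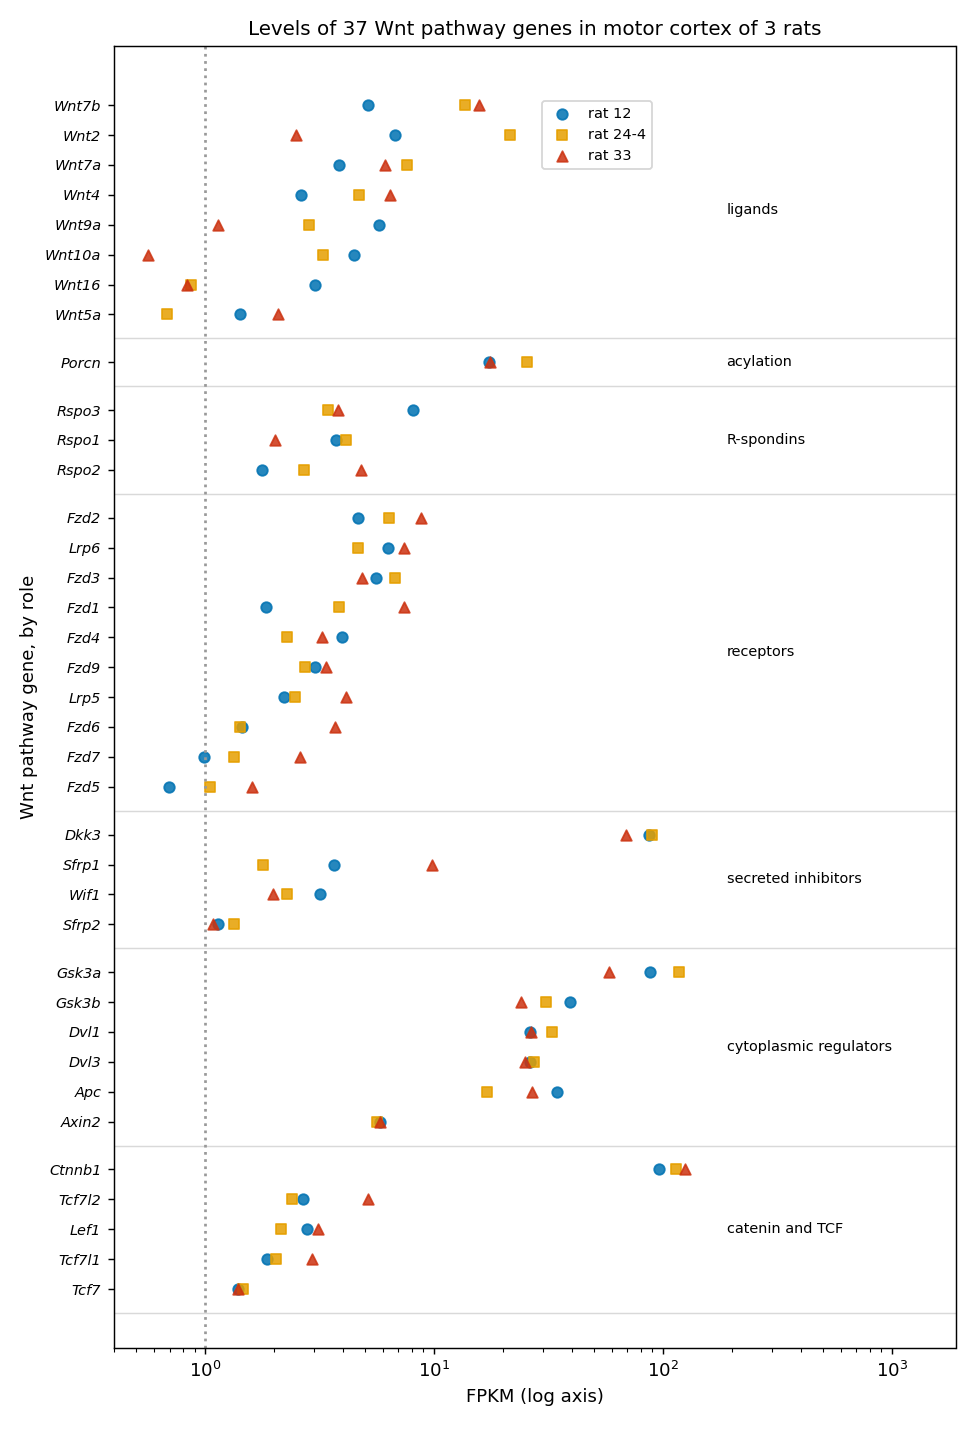
FPKM on a log axis of the 37 tested Wnt pathway genes, grouped by role, with 1 point per rat (circle rat 12, square rat 24-4, triangle rat 33) and a dotted line at 1 FPKM. Ctnnb1, Gsk3a and Dkk3 stand at the right, the ligand points run from 0.561 to 21.4 FPKM, and the points of Axin2, Tcf7 and Dvl3, as deposited, nearly coincide.

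Among the ligands, a different gene led in different rats. Wnt2, a ligand known for its role in lung development, had 6.76, 21.4 and 2.48 FPKM in rats 12, 24-4 and 33, so that rat 24-4 was high and rat 33 low. Wnt7b, which with Wnt7a drives growth of brain vessels and their barrier, had 5.14, 13.7 and 15.7 FPKM, and here rat 12 alone was low. Wnt2 made up 18.9%, 36.6% and 6.66% of the summed ligand FPKM and Wnt7b 14.4%, 23.5% and 42.1%, in the same order of rats. Thus Wnt2 was the first ligand in rats 12 and 24-4 and Wnt7b in rat 33. The summed ligand level was 35.7, 58.5 and 37.3 FPKM.

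Wnt10a, Wnt9a and Wnt16 were highest in rat 12 and lowest in rat 33. Wnt10a, known from tooth and skin development, had 4.49, 3.29 and 0.561 FPKM in rats 12, 24-4 and 33. Wnt9a, known from joint formation, had 5.77, 2.85 and 1.13 FPKM. Wnt16, known from bone upkeep, had 3.02, 0.872 and 0.832 FPKM, with rats 24-4 and 33 close together. It reached the mean of 1 FPKM needed for testing only through rat 12. The order of rats 12, 24-4 and 33 from high to low was shared by 5 of the 37 tested members and by 11.2% of all genes tested. Wnt4, known from kidney and gonad development, ran the other way at 2.62, 4.71 and 6.44 FPKM. Wnt7a had 3.85, 7.65 and 6.12 FPKM, low in rat 12 as Wnt7b was. Wnt5a, the main ligand of signalling without β-catenin, had 1.42, 0.685 and 2.09 FPKM and was lowest in rat 24-4.

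Of the other ligands, 10 averaged between 0 and 1 FPKM, from Wnt1 at 0.0381 ± 0.0339 to Wnt5b at 0.683 ± 0.0977, and Wnt8a was listed at 0 in all rats. Wnt11 had 0.0757, 0.180 and 0.0595 FPKM, values in the ratio of 3, 8 and 2 fragments at the estimated depths. Wnt8b had 0.0447, 0.239 and 0 FPKM, in the ratio of 1, 6 and 0 fragments, and Wnt1 had 0, 0.0491 and 0.0651 FPKM, in the ratio of 0, 1 and 1. These are the smallest whole numbers that fit a transcript of at least 1000 bases, and the true numbers may be larger. If the fragments are as few as that, no difference between rats is detectable for Wnt1. Wnt3a was listed at 0 in rat 12 and had 0.374 and 0.0292 FPKM in rats 24-4 and 33. Wnt2b lies wholly within the locus of St7l on the opposite strand, which had 6.32, 5.92 and 7.64 FPKM, so its own 0.257, 0.163 and 0 FPKM are uncertain. Porcn, the enzyme that attaches the lipid without which Wnt proteins are not released, had 17.4, 25.4 and 17.6 FPKM, with rat 24-4 above the other two.

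R-spondins are secreted proteins that raise the number of frizzled receptors at the cell surface. Rspo3 had 8.09, 3.45 and 3.80 FPKM in rats 12, 24-4 and 33, with rat 12 apart from the others. Rspo2 had 1.78, 2.70 and 4.78 FPKM, highest in rat 33, and Rspo1 had 3.74, 4.11 and 2.03 FPKM, lowest in rat 33. Each of the 3 was highest in a different rat as deposited and after centring, but with the mitochondrial genome left out Rspo1 as well as Rspo3 was highest in rat 12. Rspo3 took 59.4% of the R-spondin sum in rat 12, while Rspo2 took 45.1% in rat 33 and Rspo1 40.1% in rat 24-4. Rspo4 was listed at 0.

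Receptor genes were mostly highest in rat 33. This held for 8 of the 10 tested receptors and coreceptors, where 42% of all genes tested were highest in that rat, and for 8 of 10 also with the mitochondrial genome left out or with each rat centred on its median. Under those scalings 5166 and 4560 of the 13754 genes were highest in rat 33, against 5772 as deposited. Fzd1 had 1.85, 3.83 and 7.37 FPKM in rats 12, 24-4 and 33. Fzd2 had 4.67, 6.37 and 8.76 FPKM, Fzd5 had 0.696, 1.05 and 1.61 FPKM, and Fzd7 had 0.993, 1.34 and 2.59 FPKM. These 4 frizzleds and Lrp5, at 2.21, 2.46 and 4.11 FPKM, shared the order of rats 33, 24-4 and 12 from high to low, an order held by 21.3% of all genes tested. With the mitochondrial genome left out, Lrp5 was lowest in rat 24-4 instead. Fzd5, at a mean of 1.12 FPKM, reached the 1 FPKM needed for testing only through its value in rat 33. It is counted among the 8 and in this order all the same. Fzd6 had 1.46, 1.42 and 3.69 FPKM and Lrp6 had 6.29, 4.67 and 7.39 FPKM, both highest in rat 33. The exceptions were Fzd3, a receptor of axon guidance, which was highest in rat 24-4 at 5.59, 6.77 and 4.86 FPKM, and Fzd4, the receptor of the vessel ligand norrin, which was highest in rat 12 at 3.97, 2.28 and 3.23 FPKM. The median deviation of the receptors from the mean of the rats was -0.28, -0.12 and 0.36 on the log2 scale, beside -0.06, 0.01 and 0.07 over all genes tested.

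For 5 frizzled genes the fragments behind each value could be recovered. Fzd1, Fzd2, Fzd5, Fzd7 and Fzd9 have no intron in the coding part, and their FPKM multiplied by locus length and estimated depth came within 0.069 of a whole number in all 15 values. Fzd1 (chromosome 4, 26470864 to 26475262, Rnor_6.0) rested on 125, 291 and 422 fragments in rats 12, 24-4 and 33, and the exact Poisson limits at 95% were 1.54 to 2.21, 3.41 to 4.30 and 6.68 to 8.11 FPKM. These intervals do not overlap, so the Fzd1 levels of the 3 libraries differed by more than counting error. Fzd2 rested on 137, 210 and 218 fragments, with intervals of 3.92 to 5.52, 5.54 to 7.29 and 7.64 to 10.01 FPKM. Those of rats 12 and 24-4 barely miss each other, and with the mitochondrial genome left out they overlap, at 4.24 to 5.98 and 5.27 to 6.93 FPKM, while rat 33 stays above both at 7.45 to 9.77 FPKM. Fzd7 rested on 43, 65 and 95 fragments and Fzd5 on 23, 39 and 45, and in both the intervals of rats 12 and 33 are apart while rat 12 overlaps with rat 24-4. Fzd9 had 3.04, 2.73 and 3.38 FPKM from 108, 109 and 102 fragments, with overlapping intervals throughout. Such intervals cover counting error only and say nothing of differences between animals in general. Fzd8 was listed at 0, as was a row under another name that is described as the same receptor, so its level is uncertain.

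**Figure D2:**
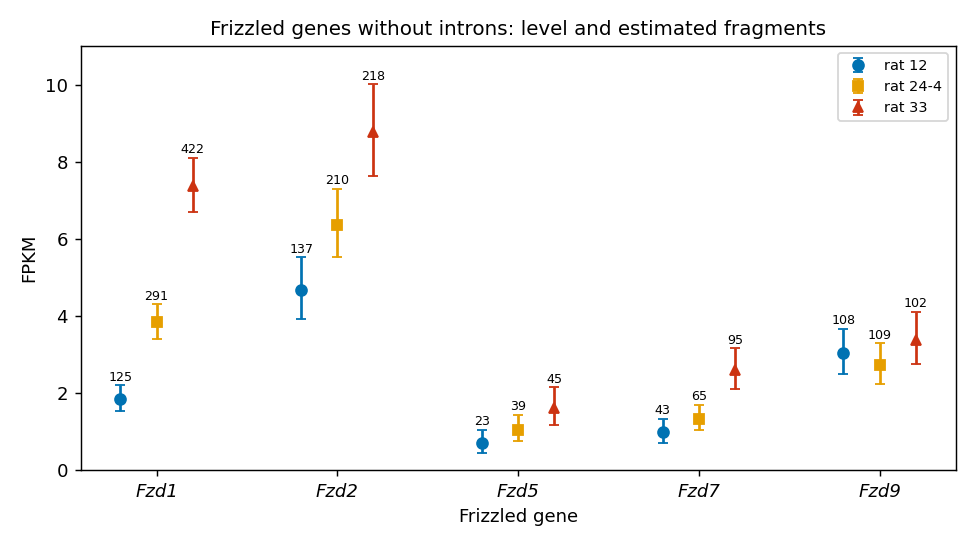
FPKM of 5 frizzled genes by rat (circle rat 12, square rat 24-4, triangle rat 33), with exact 95% Poisson intervals as bars and the number of fragments printed above each. The intervals of Fzd1 are apart in all 3 rats, those of Fzd2 in rats 12 and 24-4 nearly touch, and those of Fzd9 overlap.

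The secreted inhibitors were dominated by Dkk3. Dkk3, the member of the dickkopf family that does not act as a typical Wnt antagonist, had 86.8, 90.04 and 69.3 FPKM in rats 12, 24-4 and 33, and made up 83.8% to 93.7% of the summed level of this group. The classical antagonists were low or listed at 0. Dkk1, in both its rows, and Dkk4 were listed at 0, and Dkk2 averaged 0.255 ± 0.112 FPKM. Sfrp1, a secreted decoy that holds the ligand-binding part of a frizzled, had 3.66, 1.79 and 9.77 FPKM, high in rat 33. Markers of the choroid plexus, the tissue that makes cerebrospinal fluid, had the same order of rats: their summed level was 3346, 129 and 13210.5 FPKM, all 9 were highest in rat 33 and none was at 0 in all rats. Their part in the Sfrp1 value was not tested. Sfrp2 had 1.14, 1.34 and 1.08 FPKM with little difference between rats. Wif1, another secreted binder of Wnt proteins, had 3.17, 2.27 and 1.99 FPKM. Sfrp4 averaged 0.565 ± 0.309 FPKM, in a locus that overlaps Nme8 on the opposite strand, itself listed at 0, and Sfrp5 was listed at 0.

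The cytoplasmic regulators had higher levels, and their log2 ranges between rats had a smaller median than those of the ligands (0.49 against 1.29, not tested). Gsk3a had 87.8, 117 and 58.4 FPKM in rats 12, 24-4 and 33 and Gsk3b had 39.2, 30.8 and 24.1 FPKM, both lowest in rat 33. The Gsk3a locus shares 280 bases with Zfp526 on the opposite strand, where fragments cannot be told apart without strand, and Zfp526 had 4.16, 4.40 and 3.22 FPKM. Apc, the scaffold that is lost in colon tumours, had 34.7, 17.1 and 26.7 FPKM, lowest in rat 24-4. The dishevelled genes were even, with Dvl1 at 26.4, 32.8 and 26.5 FPKM and Dvl3 at 26.4, 27.4 and 25.1 FPKM. Axin2 was even as deposited, at 5.81, 5.64 and 5.79 FPKM, a coefficient of variation of 1.68%. Its log2 range was 0.038 as deposited, the smallest of the 37 tested members, against 0.11 after centring and 0.20 with the mitochondrial genome left out, where Tcf7 and Sfrp2 had smaller ranges.

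β-catenin and its DNA-binding partners made up the nuclear end. Ctnnb1 had 95.9, 114 and 125 FPKM in rats 12, 24-4 and 33. Tcf7l2, the TCF gene known from thalamus and oligodendrocytes, had 2.69, 2.39 and 5.13 FPKM, with rat 33 apart. Lef1 had 2.78, 2.16 and 3.13 FPKM and Tcf7l1, mostly a repressor, had 1.87, 2.05 and 2.92 FPKM. Tcf7 had 1.39, 1.46 and 1.39 FPKM, and its log2 range was 0.043 as deposited, 0.17 after centring and 0.087 with the mitochondrial genome left out. Of these 5 genes, 4 were highest in rat 33 as deposited and with the mitochondrial genome left out, and 3 with each rat centred on its median. Over all 13754 genes tested, 5772 (42%), 5166 and 4560 were highest in rat 33 under these scalings, in the same order.

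The test of variation asked whether a gene differed between the rats by more than genes of its level do, and no member passed it, which does not show that they did not differ. In a limma fit over 13754 genes, 0 of 37 members had an adjusted p under 0.05, where 0.102% of all genes did. At an unadjusted p under 0.05 there were 4 members, where 5.96% of all genes passed. These were Wnt2, Sfrp1, Wnt10a and Wnt7b, with limma adjusted p-values of 0.393, 0.706, 0.740 and 0.805. The fold between the highest and lowest rat was 8.62 for Wnt2, 5.47 for Sfrp1, 8.01 for Wnt10a and 3.06 for Wnt7b. Wnt9a and Fzd1 followed at folds of 5.09 and 3.98, with limma adjusted p-values of 0.853 and 0.883. A log2 range of at least 1 was reached by 10 members, 6 of them ligands, beside 20.4% of all genes tested. Among these 6, Wnt16 reached the mean of 1 FPKM needed for testing only through rat 12, and it also enters the ligand median given next. The median log2 range was 0.76 over the tested members and 0.61 over all genes tested, and it was 1.29 for the 8 ligands, 0.65 for the 10 receptors and 0.49 for the 6 cytoplasmic regulators. By rat, 9, 11 and 17 members were highest in rats 12, 24-4 and 33, beside 23.8%, 34.2% and 42% of all genes tested, and with the mitochondrial genome left out these counts became 13, 7 and 17 members, beside 4918, 3670 and 5166 of the 13754 genes. As deposited, 14, 11 and 12 members were lowest in rats 12, 24-4 and 33, beside 37.9%, 33.3% and 28.9%. The order 24-4, 12, 33 from high to low held for 7 members (17.7% of all genes), the order 24-4, 33, 12 for 4 (16.6%), the order 33, 12, 24-4 for 7 (20.7%), the order 33, 24-4, 12 for 10 (21.3%) and the order 12, 33, 24-4 for 4 (12.6%). Without rat 12, where the fit rests on 2 rats, 1 member was called, which was Wnt2 (limma adjusted p = 0.0128). Wnt2 lies at chromosome 4, 45292437 to 45332420, Wnt10a at chromosome 9, 82053581 to 82066047, Wnt7b at chromosome 7, 126420656 to 126465723, and Sfrp1 at chromosome 16, 73372007 to 73410777, all in the deposited Rnor_6.0 coordinates.

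**Figure D3:**
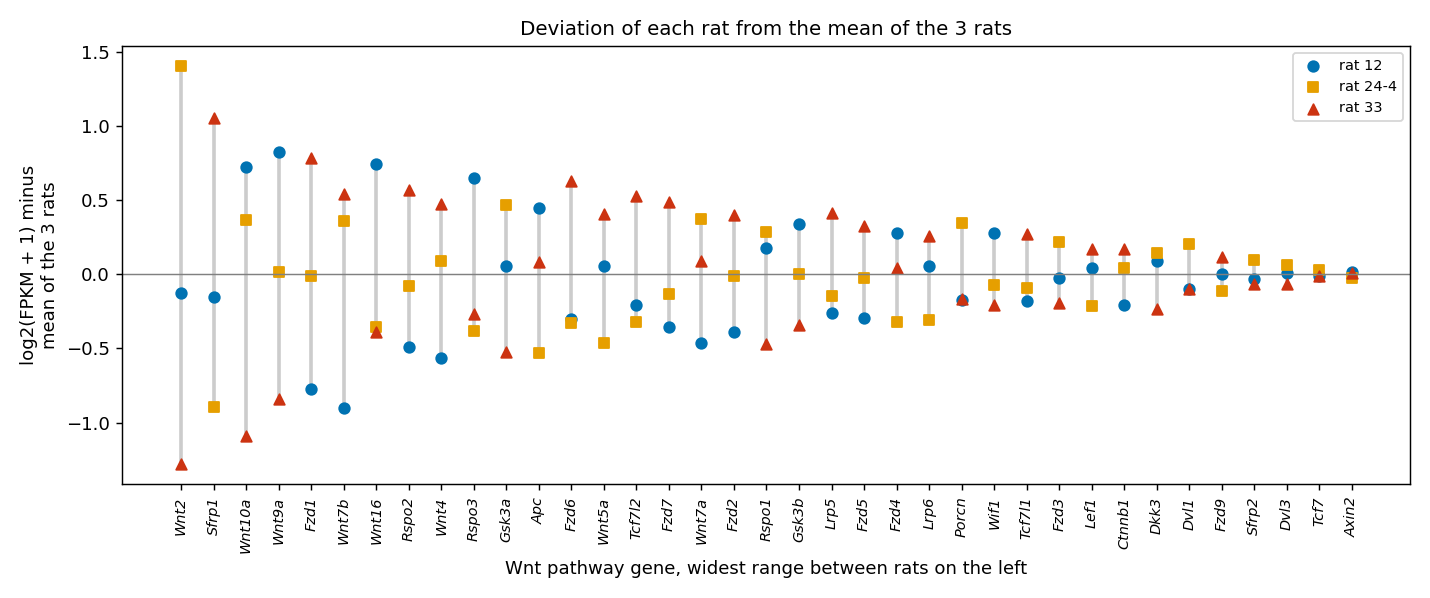
Difference of log2(FPKM + 1) in each rat from the mean of the 3 rats, for the 37 tested members, ordered by range (circle rat 12, square rat 24-4, triangle rat 33, grey line the range). Wnt2 with a range of 2.68 stands at the left, where rat 24-4 is high and rat 33 low, and Axin2 with 0.038 as deposited at the right.

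Related genes were also compared within each rat, which largely cancels the scaling of a library. Of 12 pairs measured, 10 had 1 sign in all 3 rats. Gsk3b minus Gsk3a was -1.43 ± 0.41 on the log2(FPKM + 1) scale, so the level of Gsk3b was lower in every rat. Lrp6 exceeded Lrp5 by 0.87 ± 0.27, and Fzd3 exceeded Fzd6 by 1.14 ± 0.72, with 1.42, 1.68 and 0.32 in rats 12, 24-4 and 33. Wnt7a minus Wnt7b was -0.78 ± 0.44, again lower in every rat. Sfrp1 minus Sfrp2 ran from 0.25 in rat 24-4 to 2.37 in rat 33. Dkk3 exceeded Dkk2 by 6.04 ± 0.28 and Ctnnb1 exceeded Apc by 2.10 ± 0.62. Dvl1 minus Dvl3 was 0.11 ± 0.13, within its spread, and only 0.00031 in rat 12, so its count among the 10 rests on almost no difference there. Tcf7l2 exceeded Tcf7 by 0.82 ± 0.48 and Tcf7l1 by 0.39 ± 0.25. The sign differed between rats for Tcf7l2 minus Lef1 (0.21 ± 0.32) and Wnt5a minus Wnt5b (0.47 ± 0.49). An exact two-sided sign-flip test over 3 rats cannot go below p = 0.25, which all 10 pairs of 1 sign reached (0.3 adjusted by Benjamini-Hochberg over the 12 pairs), so no pair could pass 0.05.

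**Figure D4:**
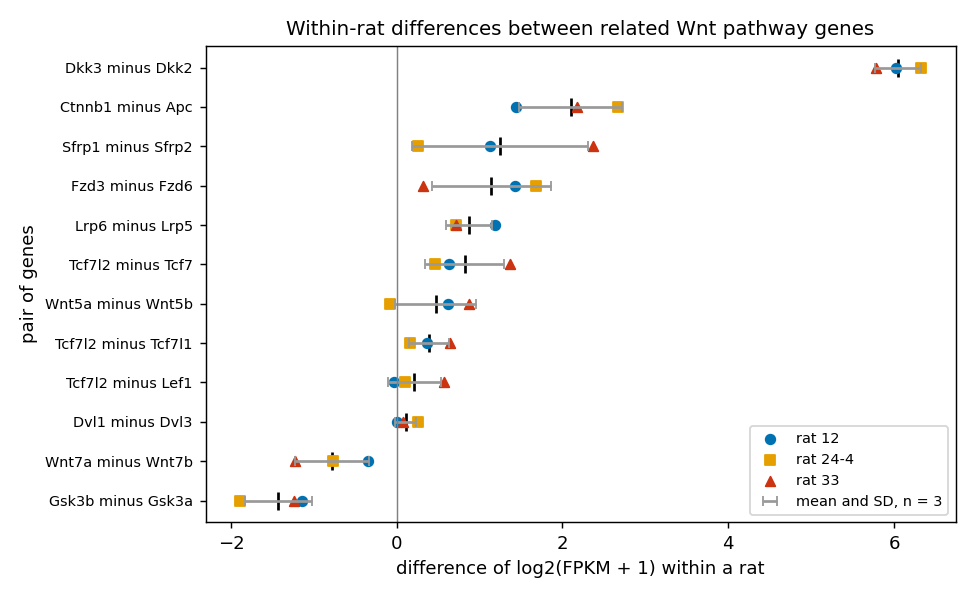
Within-rat difference of log2(FPKM + 1) for 12 pairs of related genes, with 1 point per rat (circle rat 12, square rat 24-4, triangle rat 33), a black tick at the mean and grey bars for 1 SD over the 3 rats. Gsk3b and Wnt7a lie below their partners in every rat, and Tcf7l2 minus Lef1 and Wnt5a minus Wnt5b cross 0.

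Other genes of the pathway were taken from lists by role. Of 81 such genes found by symbol, 71 were tested, 1 passed an adjusted limma p under 0.05 (0.102% of all genes) and 5 an unadjusted one (5.96% of all genes). The called gene was Sostdc1, a secreted antagonist of Wnt and BMP signals, with 23.3, 1.22 and 132 FPKM in rats 12, 24-4 and 33 (limma adjusted p = 0.0170). That call was lost without rat 24-4, where the limma adjusted p was 0.909, and under 3 other settings, where it was 0.0740 to 0.187. The choroid plexus markers given with Sfrp1 had the same order of rats, and their part in the Sostdc1 value was not tested. The other 4 were Dact2, a dishevelled binder, at 19.7, 11.5 and 2.01 FPKM, the adhesion receptor Cd44 at 2.04, 5.71 and 17.1 FPKM, Igfbp4 at 18.7, 41.8 and 11.8 FPKM, and Shisa3, of a family known in frogs to retain frizzleds inside the cell, at 3.77, 1.35 and 0.175 FPKM. Their limma adjusted p-values ran from 0.316 for Dact2 to 0.712 for Shisa3. The mean of 1 FPKM needed for testing was reached by Shisa3 only through rat 12. Wls, the carrier that brings Wnt proteins to the cell surface, had 14.8, 10.2 and 26.1 FPKM. Lgr4, the R-spondin receptor with the highest level, had 12.5, 8.15 and 13.1 FPKM, and Tspan12, a partner of Fzd4, had 12.6, 10.98 and 20.6 FPKM. The vessel coreceptors of Wnt7a and Wnt7b, chosen for that role after their values were seen, had 6.997, 7.67 and 10.03 FPKM (Adgra2) and 6.06, 4.29 and 8.48 FPKM (Reck). In the list of other receptors and coreceptors, all 9 genes with any signal were highest in rat 33, Ndp being listed at 0. Over all genes tested the share was 42%, and Ror1, Ror2 and Musk averaged below 1 FPKM. The highest gene of the polarity list was the cadherin gene Celsr2 at 50.5 ± 13.9 FPKM, that of the list of other cytoplasmic regulators the kinase gene Csnk1a1 at 65.4 ± 8.57 FPKM, and that of the nuclear cofactors the corepressor gene Ctbp1 at 75.6 ± 13.2 FPKM.

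Known target genes of the TCF and LEF factors, some of them members too, had mixed orders of rats. Of 14 found, 12 were tested. An adjusted limma p under 0.05 was reached by 0 (0.102% of all genes) and an unadjusted one by 1, Cd44 (5.96% of all genes). Axin2 and Tcf7 were given above. Nkd1, a feedback inhibitor with the highest level of the list, had 13.1, 24.0 and 29.6 FPKM in rats 12, 24-4 and 33. The feedback ubiquitin ligase gene Rnf43 had 5.38, 8.36 and 11.7 FPKM. Lgr5 had 1.56, 1.33 and 0.957 FPKM, in the opposite order. Of the 13 target genes with any signal, 7 were highest in rat 33, 4 in rat 24-4 and 2 in rat 12. Over all genes tested, the shares were 42%, 34.2% and 23.8% in the same order.

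Markers of several cell types differed between the rats too. In bulk tissue, fewer cells of a type and less RNA per cell cannot be told apart. All 7 reactive astrocyte markers were highest in rat 33, summing to 343, 1096 and 2032 FPKM in rats 12, 24-4 and 33. So were all 8 markers of microglia and macrophages, at 122, 237 and 401 FPKM, and none of these markers was at 0 in all rats. Over all genes tested, 42% were highest in rat 33. Both sums had the order 33, 24-4, 12 from high to low, held by 10 of the 37 tested members and 21.3% of all genes tested. The reactive astrocyte marker Steap4 was lowest in rat 24-4 instead. The 7 oligodendrocyte markers summed to 5385, 7006 and 12245 FPKM and were all highest in rat 33. The 8 markers of meningeal and perivascular fibroblasts summed to 42.7, 40.0 and 114 FPKM, with Col1a2 and Ogn listed at 0 and 5 highest in rat 33. The 7 endothelial markers summed to 81.8, 103 and 106 FPKM, and 6 were highest in rat 33. The other, Cldn5, had 33.6, 62.2 and 42.6 FPKM and weighed on the sum of rat 24-4. The median deviation of the endothelial markers was -0.09, -0.19 and 0.36 in rats 12, 24-4 and 33. The 7 astrocyte markers summed to 554, 644 and 736 FPKM but were mixed, with 1, 3 and 3 highest in rats 12, 24-4 and 33. The sums were 108, 87.1 and 196 FPKM for 7 mural cell markers, of which 6 were highest in rat 33. They were 171, 276 and 389 FPKM for 6 markers of oligodendrocyte precursors, with 4 highest in rat 33 and Neu4 listed at 0. The 4 ependymal markers, all highest in rat 33, summed to 28.8, 42.0 and 51.9 FPKM. Markers of glutamatergic neurons ran lower in rat 33 in sum, at 2055, 2154 and 1029.5 FPKM. Of these 7 markers, 5, 2 and 0 were highest in rats 12, 24-4 and 33. Among them Neurod6 was lowest in rat 12 instead, at 34.9, 47.0 and 43.3 FPKM in rats 12, 24-4 and 33. Markers of GABAergic neurons summed to 471, 518 and 264 FPKM, with 4, 2 and 0 of 6 highest in rats 12, 24-4 and 33. So rat 24-4 had the highest sum of both neuron types, but most of these markers were highest in rat 12. Of all genes tested, 23.8% were highest in rat 12. No neuronal marker was at 0 in all rats. Of the 37 tested Wnt members, 12 were lowest in rat 33, beside 28.9% of all genes tested. The part of any of these markers in the Wnt values was not tested.

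**Figure D5:**
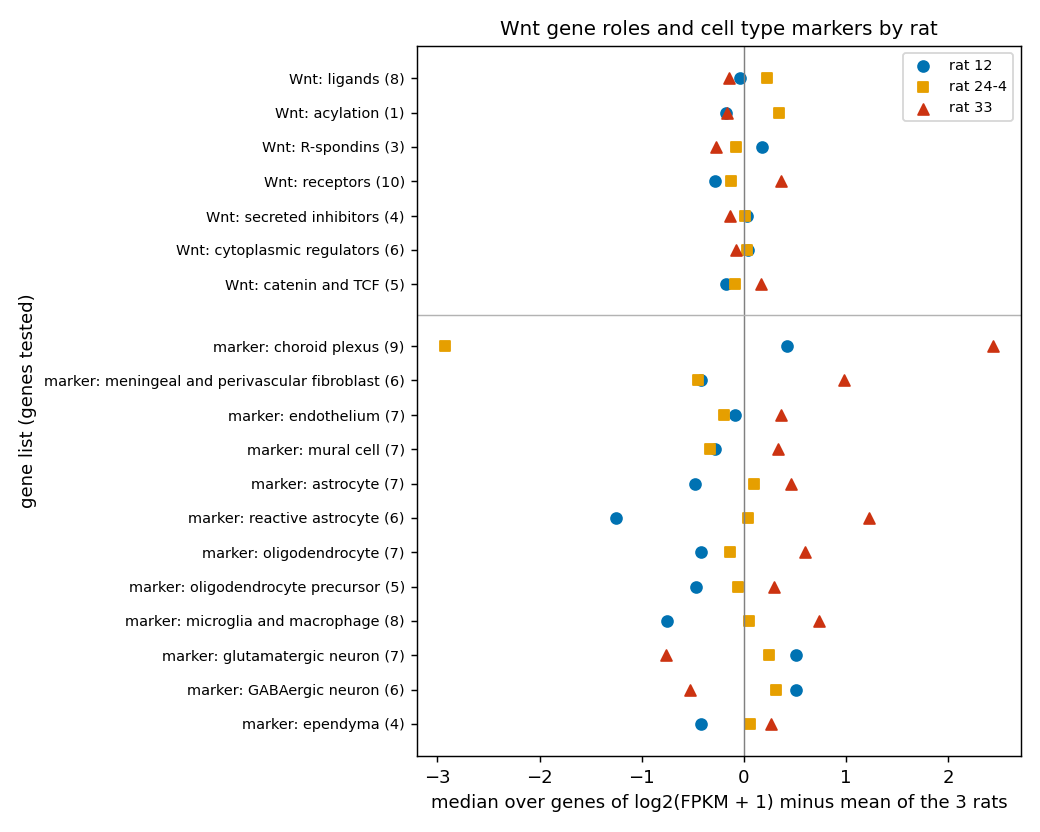
Median over genes of the difference of log2(FPKM + 1) from the mean of the 3 rats, for the roles of the Wnt pathway genes (upper block) and for markers of cell types (lower block), with 1 point per rat (circle rat 12, square rat 24-4, triangle rat 33) and the number of genes tested in brackets. The Wnt roles stay within about 0.4 of 0, with the receptors at -0.28, -0.12 and 0.36, while the choroid plexus markers run from -2.93 in rat 24-4 to 2.44 in rat 33.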

How the data were processed

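RNA sequencing of motor cortex from 3 rats was analysed, 1 deposited table per rat with 30957 genes; no table equalled another. Per the series' design text, the authors normalized fragment counts and derived FPKM from them. The submitters' processing notes name HISAT2 2.0.4, StringTie 1.3.0 and Rnor_6.0, while neither the normalization method nor the use of strand is stated there. Members and gene lists were chosen with earlier results of these data known. Tests used log2(FPKM + 1), a scale that compresses differences of low genes, over genes averaging 1 FPKM or more. Each gene's variance between rats was tested with limma 3.58.1 in R 4.3.3: an intercept per gene, a trended and robust prior of 7.96 degrees of freedom, residual over prior variance against the F distribution, one-sided, with Benjamini-Hochberg adjustment over all 13754 genes and a threshold of 0.05. The procedure was tested on simulated data. Depth was taken as the number that made values of loci of at most 400 bases whole within 0.02, which held for 89.8% to 90.4% of 745 to 793 values per rat; whether it is a raw or a normalized library size is not known. Low ligands were matched to whole fragments within 0.03. Per-rat values were planned for the highest and lowest genes of each role, members of pairs, those with an unadjusted p under 0.05 and those among the 10 widest ranges, and for other Wnt genes the highest of each list and those with an unadjusted p under 0.05. The remaining receptors, low ligands, inhibitors and target genes given by value were added after their values were seen. Alternatives changed the pseudocount, filter, prior, scaling and rats. Promoters came from RefSeq (GRCr8); no coordinates were converted. Further software was scipy 1.17.1, pandas 2.3.3 and numpy 2.4.6 under Python 3.11.15.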

Additional observations from a re-analysis of the deposited data

How the results depend on the processing

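The count of genes called variable was unstable, so the count of 0 called Wnt members holds for the settings named here. Against 14 genes with the main settings, 23 were called with a pseudocount of 0.1, 9 with a prior without a trend, 54 after centring each rat on its median, and 2103 without a filter on low values. It was 0 with a mean FPKM of at least 0.1, with a prior that is not robust, and with the mitochondrial genome left out, while the number at an unadjusted p under 0.05 by limma was 903, 733 and 683 in these settings. Leaving out 1 rat gave 0 to 104 genes: 104 without rat 12, 0 without rat 24-4 (655 at an unadjusted limma p under 0.05) and 64 without rat 33. Members called numbered 3 without a filter (Wnt1, Wnt2 and Wnt8b) and 0 to 1 with a rat left out, and 0 under the other alternatives, with 2 to 5 at an unadjusted limma p under 0.05. The direction between the rats highest and lowest as deposited turned for 1 tested member, Tcf7, at a log2 range of -0.067 with the mitochondrial genome left out. The order of rats changed for further members. Dkk3, Dvl3 and Rspo1 were highest in rat 12 with the mitochondrial genome left out, and Ctnnb1 in rat 24-4 after centring. The lowest rat changed for others, among them Porcn and Dvl1. With a pseudocount of 0.1 the median level was -0.63 for ligands, 1.54 for R-spondins, 1.496 for receptors, -1.12 for secreted inhibitors and 1.45 for the catenin and TCF genes, by construction of the scale. Leaving out rows listed at 0 gave 2.22 for R-spondins and 1.42 for secreted inhibitors. The deviation of rat 33 became 0 for secreted inhibitors without a filter and -0.16 for cytoplasmic regulators after centring, and ran from -0.32 to 0.054 for R-spondins with a rat left out, the highest without rat 12. None of the 12 pair differences changed sign under the alternatives run. Other causes were not tested. No paired analysis was possible because there is 1 group. The smallest whole numbers of fragments that fit Wnt1, Wnt8b and Wnt11 were 8 or fewer per rat, and the true numbers may be larger.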

Other observations

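Of the 19 ligand genes, 8 lay next to another ligand gene, in 4 pairs with no other gene of the tables between them (Rnor_6.0 coordinates). Wnt6 and Wnt10a were 6414 bases apart on chromosome 9, and Wnt10b and Wnt1 were 10730 bases apart on chromosome 7. Wnt3a and Wnt9a were 21107 bases apart and Wnt9b and Wnt3 22716 bases apart, both on chromosome 10. No difference between neighbours was tested. Wnt10a averaged 2.78 ± 2.01 FPKM and Wnt6 0.354 ± 0.164 FPKM (SD, n = 3 rats). Wnt9a averaged 3.25 ± 2.35 FPKM and Wnt3a 0.135 ± 0.208 FPKM. Wnt10b averaged 0.586 ± 0.150 FPKM and Wnt1 0.0381 ± 0.0339 FPKM, while Wnt9b at 0.227 ± 0.0328 FPKM and Wnt3 at 0.251 ± 0.106 FPKM were both low.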
